A study of Mus musculus with 4 samples.

Results

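The urea cycle and amino acid breakdown enzymes are a list of 45 genes that code for enzymes of these pathways, and they were read from every non-control spot whose gene name equals a listed name. All 45 were well above background on all 4 arrays, out of 20386 genes above background on at least 1 array, and none had a saturated spot. The samples were livers of male C57BL/6 mice, a common inbred laboratory strain, that were 5 weeks old when they began a high-fat, high-sucrose (HFHS) diet. The groups were HFHS 0 weeks (mice aged 5 weeks), HFHS 5 weeks (aged 10 weeks), HFHS 10 weeks (aged 15 weeks) and HFHS 15 weeks (aged 20 weeks), and the labels give no genotype change or other agent. There was 1 array per time point, so no difference below has a replicate check, a p-value or an SD between animals. The submitters fed 4 mice for each duration, and the sources used here do not give whether an array carried RNA of 1 mouse or of a pool. Age and time on the diet cannot be told apart, since age-matched livers without the diet are not analysed here.

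The liver is the main site where nitrogen from amino acids is turned into urea. Carbamoyl phosphate made in mitochondria enters a cycle in which ornithine, citrulline, argininosuccinate and arginine follow each other, and arginase releases the urea. Before that, transaminases and dehydratases take the nitrogen off the amino acids, and separate pathways break down the carbon skeletons of histidine, the aromatic amino acids, lysine, methionine, glycine, serine, proline and the branched-chain amino acids. Most of these enzymes are highly expressed in hepatocytes, many of them around the portal vein, and their genes are known to respond to glucagon, glucocorticoids, insulin and protein intake.

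Each array probe is a 60-base oligonucleotide, and the signal of a gene is that of its brightest probe. The probes of 7 enzymes described below are shown because the results rest on what they bind. Coordinates are those of the array annotation in mm9. Each is written from its 5′ end as the scanner files give it, with no base in capitals, since no part of a probe is singled out. The probes of Asl, Hpd, Tdo2, Gnmt and Fah cover a genomic interval longer than the 60 bases of the probe, so each lies across an intron of the gene.
Cps1 (chr1:67276029-67276088): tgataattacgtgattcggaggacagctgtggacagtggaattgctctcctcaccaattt
Asl (chr5:130487964-130488549): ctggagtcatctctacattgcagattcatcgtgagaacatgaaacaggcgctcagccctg
Arg1 (chr10:24636194-24636253): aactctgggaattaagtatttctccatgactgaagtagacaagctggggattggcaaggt
Hpd (chr5:123622237-123624360): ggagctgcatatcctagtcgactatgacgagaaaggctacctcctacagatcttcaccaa
Tdo2 (chr3:81767918-81770928): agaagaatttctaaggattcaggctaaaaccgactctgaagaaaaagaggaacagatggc
Gnmt (chr17:46862894-46863042): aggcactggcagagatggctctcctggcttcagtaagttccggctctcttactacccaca
Fah (chr7:91740916-91741732): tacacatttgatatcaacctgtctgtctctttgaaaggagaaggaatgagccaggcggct

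Values are scaled signals, the processed fluorescence signal divided by the 75th percentile of that array, so a scaled signal of 1 is the brightness at that percentile. They compare 1 probe between arrays and do not rank genes against each other. A gene was called lower or higher at a difference of at least 2-fold, and "rose" and "fell" are used only for such calls. Spots of the same probe within an array differed by a median SD of 0.0646 to 0.0743 on the log2 scale, which covers spot error only and not the spread between mice. The share of spots well above background was 44.9%, 44.5%, 44.6% and 48.3% at 0, 5, 10 and 15 weeks. The median measured gene lay at -0.02, -0.01 and -0.25 (log2) at 5, 10 and 15 weeks against 0 weeks, so the 15-week scale sits lower for most genes, and group medians below are given relative to the median measured gene.

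Most of the enzymes lay below their 0-week signal at every diet time, and most of those that passed 2-fold did so at 15 weeks. Below 0 on the log2 scale were 36 of 45 at 5 weeks, 37 at 10 weeks and 43 at 15 weeks, against 53.4%, 51.3% and 70.9% of all measured genes. These counts depend on the scaling of the arrays. Below the median measured gene were 36, 37 and 40 of the 45. At 5 weeks against 0 weeks, 2 of 45 fell and none rose, where 1.56% of 17093 measured genes fell and 2.31% rose. At 10 weeks against 0 weeks, 4 of 45 fell and none rose, against 1.53% and 2.92% of 17141 measured genes. When arrays were scaled on their median or read from the deposited value table, 7 fell, with Sds, Gldc and Cth added. At 15 weeks against 0 weeks, 18 of 45 fell and none rose, against 5.03% and 5.76% of 17560 measured genes. The median of the 45 enzymes relative to the median measured gene was -0.27, -0.36 and -0.63 (log2) at 5, 10 and 15 weeks. The 18 calls at 15 weeks depend on the scaling of the arrays: 13 enzymes were at least 2-fold lower when the fold was taken against the median measured gene, and 11 when arrays were scaled on their spike-in controls. Under each of 10 alternative ways of scaling and reading the arrays, 11 enzymes stayed at least 2-fold lower. They were Cps1, Asl, Arg1, Hal, Tat, Hpd, Sds, Sdsl, Got1, Mat1a and Cth. The 10 ways include folds against the median measured gene and leave out the setting used here and the 1.5-fold threshold. They are not independent checks. Dropping the background filter, averaging the probes and leaving out spots near bright patches each kept all 35 calls of the 4 comparisons. Dropping the filter cannot change an enzyme's call, since all 45 were above background on all arrays. The value table differs from scaling on the array median only by keeping outlier spots.

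Bright genes as a class also lay lower at 15 weeks. Of 1738 measured genes at least as bright as the lower quartile of the enzymes, 91.8% were below 0 at 15 weeks against 0 weeks, beside 95.6% of the enzymes. Below the median measured gene in that comparison were 75.8% of these bright genes and 88.9% of the enzymes. Of the same genes, 138 (7.94%) fell and 10 rose at 15 weeks against 0 weeks, and their median relative to the median measured gene was -0.19 (log2). At 5 weeks against 0 weeks 11 of these 1738 fell, and at 10 weeks against 0 weeks 7 did.

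**Figure D1:**
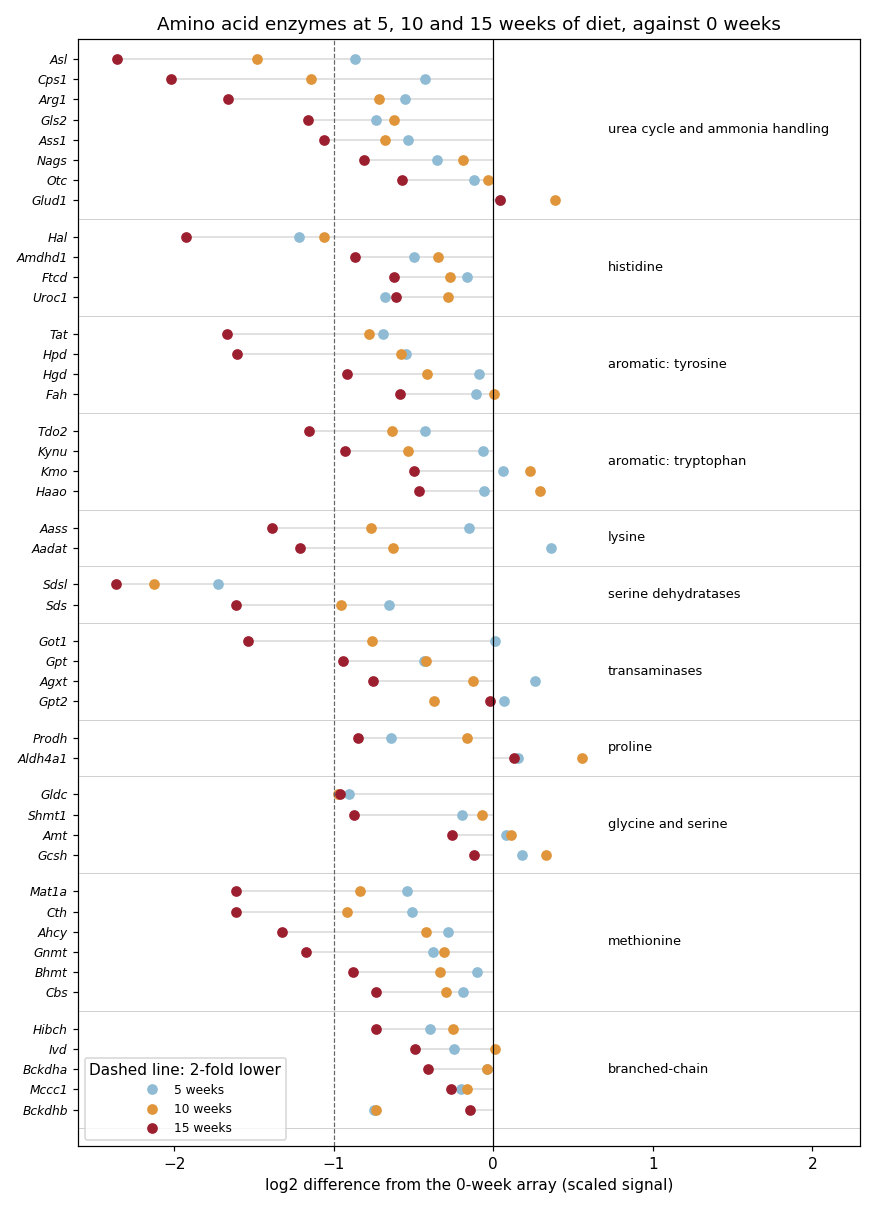
Log2 difference in scaled signal from the 0-week array (x axis) for each of the 45 enzymes (rows, ordered within groups by the 15-week value). Points stand for the single arrays at 5, 10 and 15 weeks, a later one drawn over an earlier one of like value. The 18 enzymes whose 15-week point lies left of the dashed 2-fold line include both serine dehydratases, 5 of 8 urea cycle and ammonia handling genes and 4 of 6 methionine genes.

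Of the 8 genes of the urea cycle and ammonia handling group 5 fell at 15 weeks against 0 weeks. Of these, 4 (Asl, Cps1, Arg1 and Ass1) were lower at each step than at the one before. Against the median measured gene, 3 of the 8 were at least 2-fold lower at 15 weeks. Asl, argininosuccinate lyase, which splits argininosuccinate into arginine and fumarate, had scaled signals of 295.0, 162.1, 105.5 and 57.6 at 0, 5, 10 and 15 weeks. Cps1, the mitochondrial carbamoyl phosphate synthetase that starts the cycle, had 116.6, 86.6, 52.9 and 28.8. Each later sample was lower than the one before for both genes, and both had fallen by 10 weeks (2.80-fold for Asl and 2.20-fold for Cps1). At 15 weeks against 0 weeks Asl was 5.12-fold and Cps1 4.05-fold lower, and both also fell at 15 weeks against 5 weeks (2.81-fold and 3.01-fold).

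Arg1, arginase, which releases urea from arginine, had scaled signals of 380.6, 259.8, 231.8 and 120.4 at 0, 5, 10 and 15 weeks, 3.16-fold lower at 15 weeks than at 0 weeks. Ass1, argininosuccinate synthase, which joins citrulline to aspartate, had 1490, 1028, 929.2 and 715.7. Ass1 was 2.08-fold lower at 15 weeks than at 0 weeks, a call that 3 of the 10 ways of scaling and reading kept. None of these 3 changed the scaling of the arrays, and log2 differences over the 10 ways ran from -1.21 to -0.45. The second Ass1 probe differed by -1.37 (log2) in the same comparison. Gls2, the liver-type glutaminase that frees ammonia from glutamine for the cycle, had 205.2, 123.6, 133.6 and 91.8, and was 2.23-fold lower at 15 weeks than at 0 weeks. The Gls2 call was kept by 6 of the 10 ways of scaling and reading, with log2 differences from -1.16 to -0.65.

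The other 3 genes of the group stayed within 2-fold. Otc, ornithine transcarbamylase, which makes citrulline, had scaled signals of 70.3, 64.7, 68.8 and 47.4 at 0, 5, 10 and 15 weeks. Nags, which makes the N-acetylglutamate that activates carbamoyl phosphate synthetase, had 30.1, 23.6, 26.4 and 17.2. Glud1, glutamate dehydrogenase, which releases ammonia from glutamate, had 144.5, 148.8, 188.9 and 148.8 and was the one gene of the group not at its lowest at 15 weeks. The group median relative to the median measured gene was -0.46, -0.64 and -0.86 (log2) at 5, 10 and 15 weeks against 0 weeks.

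At 5 weeks against 0 weeks, Sdsl and Hal were the enzymes that passed 2-fold, and Gldc and Asl came next with log2 differences of -0.91 and -0.86. Sdsl, serine dehydratase-like, a relative of the enzyme that turns serine into pyruvate and ammonia, had scaled signals of 161.1, 48.8, 37.0 and 31.3 at 0, 5, 10 and 15 weeks. It was 3.30-fold lower at 5 weeks and 5.15-fold lower at 15 weeks than at 0 weeks, so most of its difference was present at the first diet sample. Sds, serine dehydratase itself, had 129.2, 82.2, 66.7 and 42.3. In the setting used here it passed 2-fold at 15 weeks only (3.06-fold lower than at 0 weeks). Under 3 of the 10 ways of scaling and reading it also passed 2-fold at 10 weeks. A second Sds probe with a low signal (0.257 at 0 weeks) stayed within 2-fold. It gave log2 differences of -0.89, -0.55 and -0.69 at 5, 10 and 15 weeks against 0 weeks.

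Hal, histidine ammonia-lyase, which removes ammonia from histidine in the first step of its breakdown, had scaled signals of 252.0, 108.4, 120.6 and 66.3 at 0, 5, 10 and 15 weeks. It was 2.32-fold, 2.09-fold and 3.80-fold lower at 5, 10 and 15 weeks than at 0 weeks. A second Hal probe gave log2 differences of -1.51, -1.14 and -1.95 at the same times, against -1.22, -1.06 and -1.93 for the first. The next enzymes of the pathway stayed within 2-fold. Uroc1, urocanate hydratase, had 111.4, 69.5, 91.3 and 73.1, and was lowest at 5 weeks. Amdhd1, which opens the imidazolone ring, had 49.0, 34.8, 38.6 and 26.9. Ftcd, which passes the formimino group to folate, had 351.1, 313.2, 290.7 and 227.8. The fall in this pathway was thus a call for the first enzyme alone, and the difference between Hal and the later steps was not tested.

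In tyrosine breakdown, the first enzymes fell and the last stayed within 2-fold. Tat, tyrosine aminotransferase, had scaled signals of 488.0, 302.3, 284.5 and 153.6 at 0, 5, 10 and 15 weeks and was 3.18-fold lower at 15 weeks than at 0 weeks. Hpd, which makes homogentisate from the Tat product, had 752.0, 513.7, 503.2 and 246.9 and was 3.05-fold lower. Both had their smallest step from 5 to 10 weeks. Hgd, homogentisate dioxygenase, had 107.8, 101.3, 80.9 and 57.1. Fah, fumarylacetoacetate hydrolase, the last enzyme of the pathway, had 149.6, 139.0, 150.0 and 99.7. The group median was -1.01 (log2) relative to the median measured gene at 15 weeks against 0 weeks.

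In tryptophan breakdown through kynurenine, Tdo2 was the only gene of the 4 to pass 2-fold. Tdo2, tryptophan dioxygenase, the first enzyme, had scaled signals of 62.2, 46.2, 40.1 and 27.9 at 0, 5, 10 and 15 weeks and was 2.23-fold lower at 15 weeks than at 0 weeks, a call that 6 of the 10 ways of scaling and reading kept. Kmo, kynurenine monooxygenase, had 123.9, 129.1, 145.6 and 87.7, and Haao, which opens the ring of hydroxyanthranilate, had 233.6, 224.8, 285.7 and 169.2. Both were highest at 10 weeks and lowest at 15 weeks. Kynu, kynureninase, had 14.2, 13.6, 9.81 and 7.47.

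Of the 6 enzymes of methionine and homocysteine metabolism 4 fell, and none of them passed 2-fold before 15 weeks in the setting used here. Cth also passed 2-fold at 10 weeks against 0 weeks under 2 of the 10 ways of scaling and reading. Taken against the median measured gene, 3 of the 6 were at least 2-fold lower at 15 weeks. Mat1a, which makes S-adenosylmethionine, the methyl donor of the cell, had scaled signals of 630.6, 434.3, 352.9 and 206.0 at 0, 5, 10 and 15 weeks. Gnmt, glycine N-methyltransferase, which spends that donor on glycine, had 804.2, 617.7, 648.9 and 356.2. Cth, cystathionine gamma-lyase, the last step to cysteine, had 209.4, 147.1, 111.1 and 68.6. Mat1a, Gnmt and Cth were 3.06-fold, 2.26-fold and 3.05-fold lower at 15 weeks than at 0 weeks. The Gnmt call was kept by 6 of the 10 ways of scaling and reading, with log2 differences from -1.17 to -0.61.

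Ahcy, which splits S-adenosylhomocysteine, had scaled signals of 253.8, 208.3, 189.8 and 101.2 at 0, 5, 10 and 15 weeks and was 2.51-fold lower at 15 weeks than at 0 weeks. This call was kept by 8 of the 10 ways of scaling and reading. The Ahcy spot on the 0-week array had 17 unusually bright spots among its 44 neighbours, and the 2 other Ahcy probes gave larger differences (-1.64 and -1.62, against -1.33 on the log2 scale). Bhmt, which remakes methionine from homocysteine with betaine, had 2024, 1884, 1607 and 1102, within 2-fold on its brightest probe, while its other 3 probes differed by -1.36, -1.49 and -0.66 (log2) at 15 weeks against 0 weeks. Cbs, cystathionine beta-synthase, had 555.3, 486.3, 452.4 and 334.2. All 6 genes of the group were highest at 0 weeks and lowest at 15 weeks, and 5 of them were lower at each step than at the one before, Gnmt being the exception. The group median, here without subtracting the median measured gene, was -0.33, -0.38 and -1.25 (log2) at 5, 10 and 15 weeks against 0 weeks.

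**Figure D2:**
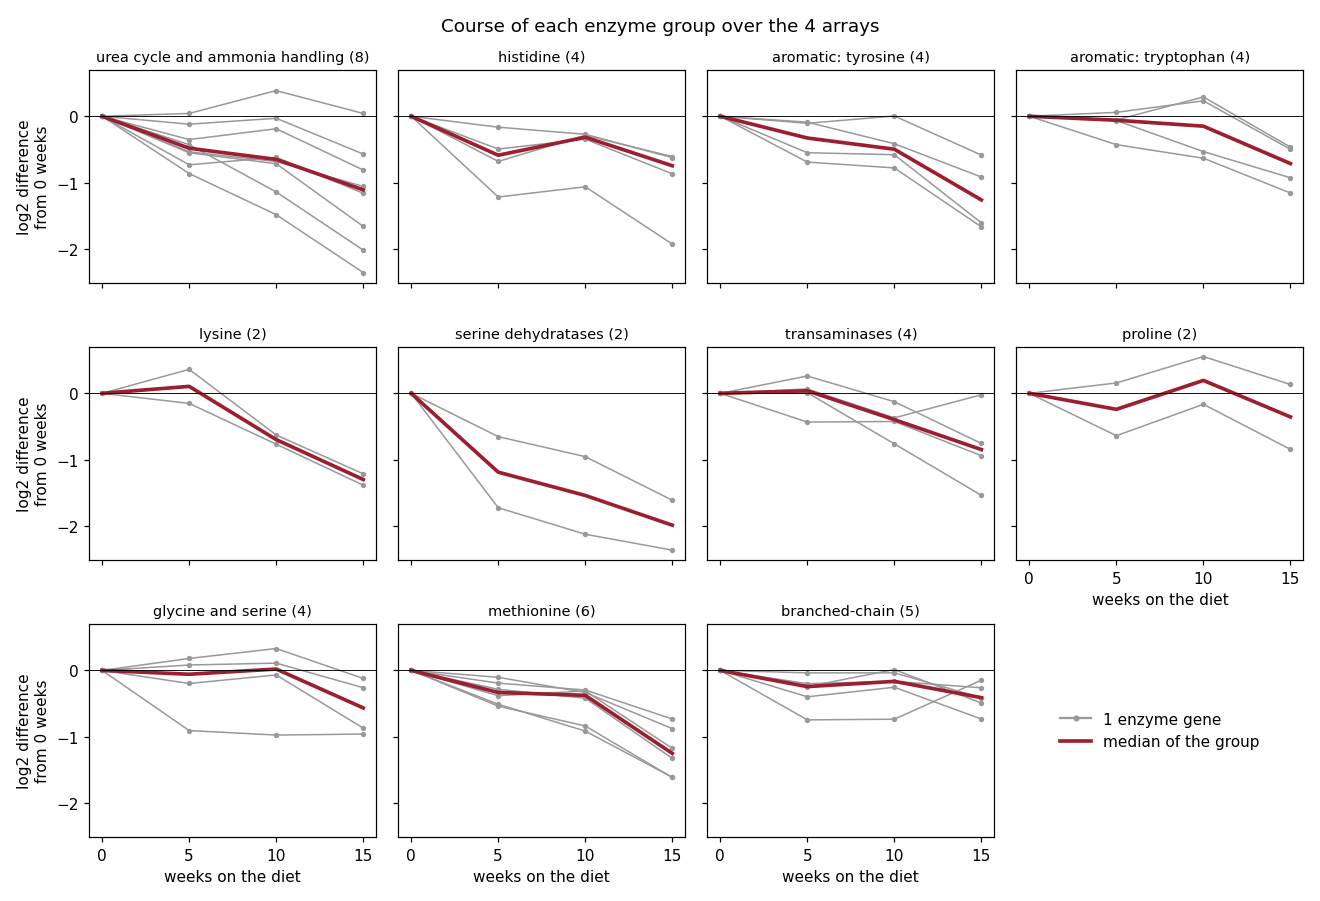
Log2 difference in scaled signal from 0 weeks (y axis) over weeks on the diet (x axis), 1 panel per enzyme group with its number of genes; thin lines are single genes, the thick line is the group's median, and each time point is 1 array. Sdsl, the lower line of the serine dehydratases, is 2-fold lower by 5 weeks, the medians of the methionine and tyrosine groups change most after 10 weeks, and the branched-chain median stays within 0.41 of 0.

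The lysine genes and the cytosolic aspartate transaminase were near or above their 0-week signal at 5 weeks and lower afterwards. Aass, the bifunctional enzyme that opens lysine breakdown, had scaled signals of 359.1, 323.3, 211.0 and 137.5 at 0, 5, 10 and 15 weeks and was 2.61-fold lower at 15 weeks than at 0 weeks. Aadat, the aminoadipate aminotransferase, had low signals of 0.225, 0.288, 0.145 and 0.0969 and was 2.32-fold lower. The Aass and Aadat calls were kept by 8 and 7 of the 10 ways of scaling and reading. Got1, the cytosolic aspartate aminotransferase, had 260.4, 262.2, 153.6 and 89.7. It was level at 5 weeks and 2.90-fold lower at 15 weeks than at 0 weeks.

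The other transaminases stayed within 2-fold of 0 weeks. Gpt, the cytosolic alanine aminotransferase, had scaled signals of 200.6, 148.6, 149.5 and 104.6 at 0, 5, 10 and 15 weeks. Gpt2, its mitochondrial counterpart, had 77.0, 80.6, 59.6 and 75.8, the 15-week value differing from the 0-week value by -0.02 (log2). Agxt, which turns glyoxylate into glycine, had 466.4, 558.9, 427.4 and 276.3, and was 2.02-fold lower at 15 weeks than at 5 weeks, where it was highest.

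The groups without a single call at 15 weeks against 0 weeks were proline, glycine and serine, and the branched-chain group. Prodh, proline dehydrogenase, had scaled signals of 109.6, 70.4, 97.8 and 61.1 at 0, 5, 10 and 15 weeks, while Aldh4a1, the next enzyme of proline breakdown, had 52.3, 58.3, 76.8 and 57.4. Prodh was lowest at 15 weeks and Aldh4a1 at 0 weeks. Gldc, the decarboxylase of the glycine cleavage system, had 90.5, 48.3, 46.1 and 46.6, a difference of -0.91 (log2) at 5 weeks that did not grow afterwards. Its partners Amt and Gcsh had 1.04, 1.10, 1.12 and 0.864, and 76.7, 86.8, 96.4 and 70.5. Shmt1, the cytosolic serine hydroxymethyltransferase, had 15.8, 13.8, 15.0 and 8.63.

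Among the branched-chain genes, Bckdhb had a course of its own. Bckdhb, the beta subunit of the first component of the branched-chain ketoacid dehydrogenase, had scaled signals of 74.9, 44.7, 45.01 and 67.7 at 0, 5, 10 and 15 weeks, low at the middle times and near its first value at the end. Bckdha, the alpha subunit of the same component, had 192.4, 187.6, 187.6 and 144.8. Ivd, which acts on isovaleryl-CoA from leucine, had 48.5, 41.0, 49.0 and 34.5. Mccc1, a subunit of methylcrotonyl-CoA carboxylase, had 13.8, 12.01, 12.3 and 11.5, and Hibch, which acts in valine breakdown, had 43.1, 32.7, 36.1 and 25.9. None of the 5 passed 2-fold in any of the comparisons with 0 weeks. The group median relative to the median measured gene was -0.22, -0.16 and -0.16 (log2) at 5, 10 and 15 weeks.

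Over the 4 arrays, 18 of the 45 enzymes (40%) were lower at every step than at the one before, where 13.3% of 16684 genes measured on all arrays were. Of the enzymes, 33 (73.3%) were highest at 0 weeks, against 33.0% of those genes, and 39 (86.7%) were lowest at 15 weeks, against 59.2%. None was higher at every step. These shares describe single arrays and the enzymes share each array's scale. They were not read for the 1738 bright genes, which as a class also lay lower at 15 weeks.

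At 15 weeks against 5 weeks, 11 of 45 enzymes fell and none rose, where 4.3% of 17421 measured genes fell and 4.07% rose, and 5 were 2-fold lower against the median measured gene. Of the 1738 bright genes, 119 (6.85%) fell and 6 rose in this comparison. Their median relative to the median measured gene was -0.18 (log2), beside -0.33 for the enzymes. Below the median measured gene were 80.8% of these bright genes and 82.2% of the enzymes. The 11 enzymes that fell were Cps1, Asl, Arg1, Hpd, Aass, Aadat, Got1, Agxt, Mat1a, Cth and Ahcy, with folds from 2.02 for Agxt to 3.01 for Cps1. Of these, Cps1, Asl and Got1 passed 2-fold under each of the 10 ways of scaling and reading the arrays. Hal and Sdsl, the genes already lower at 5 weeks, were not among them (log2 differences of -0.71 and -0.64). This comparison shares its 5-week and 15-week arrays with those above.

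**Figure D3:**
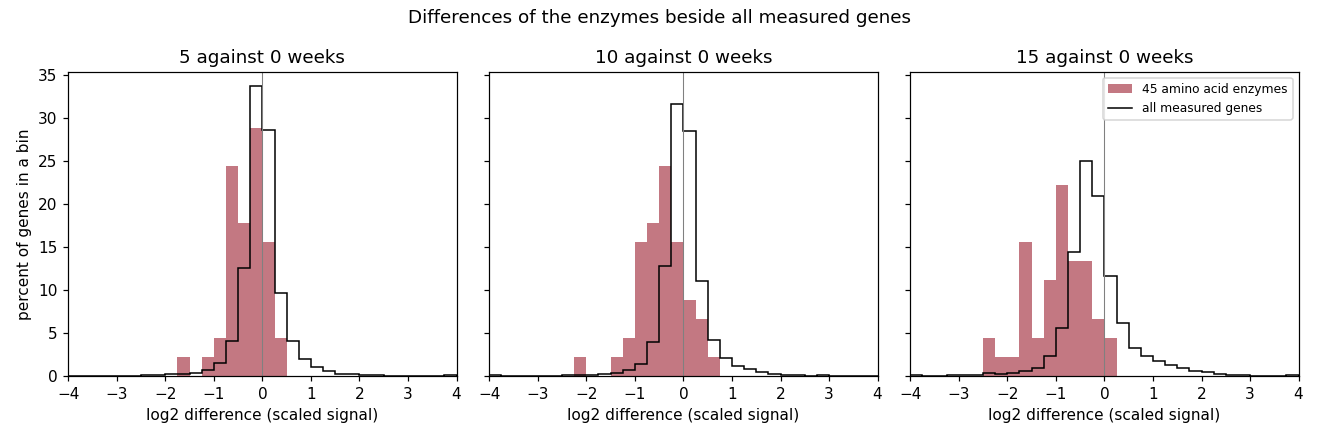
Share of genes (y axis, percent) by log2 difference in scaled signal (x axis) at 5, 10 and 15 weeks against 0 weeks, for the 45 enzymes (filled) and all measured genes (line), with values beyond 4 in the outermost bins. The enzymes' median is -0.28, -0.37 and -0.88 (log2) in turn, left of the median of all measured genes in each panel.

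Of 84 other genes of the same pathways, 78 were measured at 15 weeks against 0 weeks, 6 fell (7.69%, beside 5.03% of all measured genes) and 1 rose. Against the median measured gene, 3 were 2-fold lower (Acmsd, Dbt and Hsd17b10). Of the 1738 bright genes above 7.94% fell, a set chosen by the enzymes' signals and not matched to this list, which holds dimmer genes. At 5 weeks against 0 weeks 3 fell and none rose, and at 10 weeks against 0 weeks 3 fell and 1 rose. Acmsd, which diverts tryptophan carbon away from NAD synthesis, had scaled signals of 5.45, 1.41, 1.14 and 1.01 at 0, 5, 10 and 15 weeks, 5.37-fold lower at 15 weeks than at 0 weeks. Hsd17b10, a dehydrogenase of isoleucine breakdown, had 624.6, 537.9, 462.7 and 259.4. Oat, ornithine aminotransferase, had 137.8, 150.5, 144.0 and 60.6, a change after 10 weeks. Kyat1, Slc25a22 and Dbt were the other 3 that fell, with log2 differences of -1.14, -1.25 and -1.87, and Psat1, an enzyme of serine synthesis, was the one that rose (1.26). Gamt, which makes creatine, had 101.3, 167.3, 244.6 and 167.7, and rose at 10 weeks against 0 weeks. Among 10 measured amino acid transporters, Slc43a1 and Slc6a12 fell and Slc7a8 rose at 15 weeks against 0 weeks.

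Genes that mark hormones, feeding and the clock moved on the same arrays, and their part in the enzymes' differences was not tested. Fgf21, a liver hormone of fasting and of amino acid shortage, had scaled signals of 1.24, 6.68, 3.22 and 7.38 at 0, 5, 10 and 15 weeks. G6pc, the glucose 6-phosphatase of glucose output, had 270.1, 175.5, 145.8 and 130.5. Fgf21 rose at each diet time against 0 weeks, and G6pc fell at 15 weeks, though not against the median measured gene (-0.80). Of 9 measured genes of the fed and fasted state, 3 rose at 5 weeks and 2 at 10 weeks against 0 weeks, and none fell. At 15 weeks 3 rose and 1 fell. Of 15 regulators read, Klf15, a factor of amino acid breakdown genes, was the only one that fell at 15 weeks against 0 weeks (scaled signals of 0.93, 0.754, 0.803 and 0.44 at 0, 5, 10 and 15 weeks), though not against the median measured gene (log2 difference -0.83), and the glucagon receptor Gcgr had 332.8, 331.9, 349.7 and 247.4. None of the 15 rose in that comparison, the highest difference being 0.9998 (log2), just short of 2-fold. Dbp, a clock output gene, had 20.3, 82.5, 106.6 and 27.3, and Arntl, which drives the clock, had 2.94, 1.14, 0.946 and 2.19. Of 8 measured clock genes 2 rose and 1 fell at 5 weeks against 0 weeks, 2 rose and 1 fell at 10 weeks, and 0 passed 2-fold at 15 weeks; the hour of sampling is not given in the sources used here.

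The cell type markers were also read, since in bulk liver fewer cells of a type and less RNA per cell cannot be told apart. All 17 hepatocyte markers were above background on all arrays, and 0 of 17 reached 2-fold at 15 weeks against 0 weeks, though all 17 were below 0 (log2 from -0.90 to -0.28). Their median relative to the median measured gene was -0.22, and their summed scaled signal was 23937, 22018, 24163 and 16581 at 0, 5, 10 and 15 weeks. Of 12 periportal markers outside the enzyme list 2 fell, and of 13 measured pericentral markers 1 fell. That 1 was Oat, already counted among the other pathway genes above. The pericentral list also shares Glul and Rhbg with those genes and Slc1a2 with the amino acid transporters, so it is not a separate set. The medians of these lists relative to the median measured gene were -0.31 and -0.60 (log2), beside -0.63 for the 45 enzymes. Of 17 measured macrophage markers 13 rose at 15 weeks against 0 weeks, and that list's summed scaled signal was 183.0, 328.4, 404.6 and 491.3. Of 12 stellate cell markers 4 rose and 1 fell, and of 10 sinusoidal endothelium markers none passed 2-fold. Of 4 measured adipocyte markers 3 rose, among them Cfd by 14.7-fold, of 8 measured T and NK cell markers 3 rose, and of 7 measured bile duct markers 2 rose and 2 fell. Whether the cell mixture contributed to the enzymes' differences was not tested.

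**Figure D4:**
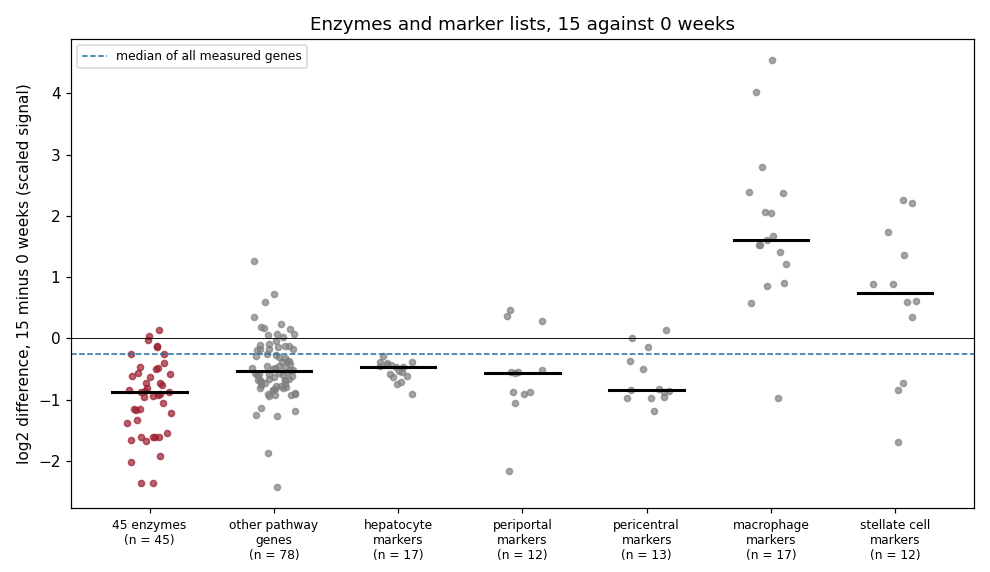
Log2 difference in scaled signal at 15 weeks minus 0 weeks (y axis) for single genes of each list (points), the list's median (bar) and the median of all measured genes (dashed line), with the number of measured genes under each list. The enzymes' median is -0.88, the hepatocyte markers' median is -0.47 and the macrophage markers' median is 1.60.

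Promoters of 35 of the 45 enzymes were matched in the RefSeq table (GRCm38.p6), and the shares below leave out Cps1, Asl, Arg1, Gls2, Sds, Sdsl, Mat1a, Cth, Gpt and Kynu. In the 250 bases before the start, on either strand, the TATA box letters TATAAA were found in 4 of 35 enzyme genes (Ftcd, Hal, Hgd and Tdo2; 11.4%) against 12.4% of 32851 promoters, the letters TGACG in 3 (8.57%) against 17.8%, and the letters TGTTCT in 3 (8.57%) against 16.1%. The windows of Hal and Tdo2, the first enzymes of histidine and tryptophan breakdown, are printed with these letters in capitals as examples of the 4 windows that hold TATAAA, Hal on the opposite strand, where it reads TTTATA. Of these 4 genes Hal and Tdo2 fell at 15 weeks against 0 weeks, and Ftcd (-0.62, log2) and Hgd (-0.92) stayed within 2-fold.
Hal (chr10:93488518-93488767, plus strand): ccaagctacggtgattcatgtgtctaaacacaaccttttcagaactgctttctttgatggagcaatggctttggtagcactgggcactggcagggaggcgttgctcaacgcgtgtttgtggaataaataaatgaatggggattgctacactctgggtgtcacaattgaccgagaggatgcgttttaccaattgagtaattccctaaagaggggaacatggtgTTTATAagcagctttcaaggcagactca
Tdo2 (chr3:81975729-81975978, minus strand): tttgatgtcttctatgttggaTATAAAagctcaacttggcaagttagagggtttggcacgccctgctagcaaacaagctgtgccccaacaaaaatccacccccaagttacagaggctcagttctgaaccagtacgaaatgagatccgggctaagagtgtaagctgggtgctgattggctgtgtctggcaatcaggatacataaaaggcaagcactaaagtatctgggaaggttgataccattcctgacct
A match describes these letters only and is not a site.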

How the data were processed

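Per the file headers, the 4 one-colour Agilent arrays were read with Agilent Feature Extraction 10.7.3.1, shared 1 slide and 1 scan time, and the deposited scanner files hold fluorescence intensity on a linear scale. The processed signal intensity was used here: per the file headers it is background-subtracted by the software. Deposited flags (other) marked spots well above background, uneven and saturated. A second deposited table of intensity equals each array's processed signal divided by its median.

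Log2 processed signals were centred on the 75th percentile of the array's non-control spots, after outlier spots were left out. Spots of a probe were averaged, and a gene was represented by whichever of its probes was brightest on average. A gene was measured in a comparison where both arrays flagged that probe as well above background, and called at 2-fold. Names came from the files or, through accession or older symbol, from RefSeq's GRCm38.p6 table. With 1 array per time point no test was run, and depth has no meaning here; the number of arrays limits precision. The steps were tested on simulated arrays. The members and gene lists were chosen with earlier results of these data known. All 45 members are named by rule. Alternatives were other scalings, normexp (limma 3.58.1, offset 50), all probes, no background filter, the value table, a 1.5-fold threshold, folds against the median measured gene and spots near bright patches left out. Spike-in scaling and the comparison with bright genes were chosen after seeing the data. Python 3.11.15, pandas 2.3.3 and R 4.3.3 were used. One gene of the fed and fasted state list is not reported here.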

Additional observations from a re-analysis of the deposited data

How the results depend on the processing

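The enzymes' median relative to the median measured gene kept its negative sign in all 4 comparisons under the alternatives that can change it. These were quantile normalization, normexp, all probes, no background filter and spots near bright patches left out. Scaling on the array median, detected probes or spike-in controls shifts all genes of an array alike, so it cannot change this value. The value table differs by such a shift and by keeping outlier spots. With a 1.5-fold threshold, 10, 17 and 33 enzymes were lower at 5, 10 and 15 weeks against 0 weeks, and at 15 weeks against 5 weeks 21 were lower and 1 (Bckdhb) was higher. Scaling on the array median, or using the deposited value table, gave 7 lower at 10 weeks against 0 weeks. Spike-in scaling gave 11 lower at 15 weeks against 0 weeks, and 4 lower and 1 (Bckdhb) higher at 15 weeks against 5 weeks. At 15 weeks against 5 weeks, 5 were lower with the array median, the 75th percentile of detected probes, normexp, the value table or folds against the median measured gene, and 4 with quantile normalization. Of the enzymes, 2, 4 and 11 were lower under each of the 10 alternative ways at 5, 10 and 15 weeks against 0 weeks. At 15 weeks against 5 weeks 3 were. Without the background filter, the relative median was -0.37 at 5 weeks and -0.46 at 15 weeks against 0 weeks, and -0.16 at 15 weeks against 5 weeks. Quantile normalization gave -0.44 at 15 weeks against 0 weeks and -0.16 at 15 weeks against 5 weeks. At 15 weeks against 0 weeks, the relative medians turned above 0 for proline (0.12 with quantile normalization, 0.0594 without the filter) and for branched-chain genes (0.0397 and 0.00451). At 15 weeks against 5 weeks they did so for histidine (0.00388, quantile normalization) and for glycine and serine (0.0598, without the filter). The cause was not tested. Leaving out an array removes a time point, so no replicate could be left out. No paired analysis was possible because each time point has 1 array.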
